A study of Homo sapiens with 6 samples.

Results

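Matrix metalloproteases and their tissue inhibitors were followed through siRNA knockdown of YAP and TAZ in MCF10A cells, an untransformed line of human mammary epithelium. The 9 genes, of 23459 in the count table, were taken by Entrez ID: the inhibitors TIMP1, TIMP2 and TIMP3, and the proteases MMP1, MMP2, MMP9, MMP10, MMP14 and MMP28. Of these, 5 passed the low-count filter and were tested. MMP1, MMP2, MMP9 and MMP10 had too few reads.

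Cells received 20 nM siRNA with the Lipofectamine RNAiMAX reagent, either non-targeting (siCtrl, 3 libraries) or directed at YAP1 and WWTR1, the gene for TAZ (siYAP/TAZ, 3 libraries). All were grown in DMEM/F12 with horse serum, penicillin-streptomycin, insulin, hydrocortisone, cholera toxin and EGF, and every library is marked WT. The siRNA sequences and the hours between transfection and harvest are not given in the sources used here. RNA was read from the 3′ end with a QuantSeq FWD kit, in which a transcript gives about 1 read whatever its length, so that levels in CPM (counts scaled by TMM to a common library size) can be set side by side between genes. All cells are of 1 line, and nothing in the labels says whether the libraries came from separate cultures, so the p-values then measure only the spread between these samples, which may be technical.

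Matrix metalloproteases are zinc enzymes that cut collagens, laminins and other matrix proteins, as well as growth factors and receptors at the cell surface. Most are secreted as inactive proenzymes, a few sit in the plasma membrane, and the TIMP proteins block the active site of the processed enzyme. In mammary tissue the balance of proteases and inhibitors accompanies duct branching and involution, and several MMP genes are known targets of the AP-1 factors that share many binding sites with YAP, TAZ and their TEAD partners.

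Library totals lay between 3175149 and 4317286 counts, and a count of 0 allowed up to 0.680 to 0.992 CPM (3 counts, counting error only, as the reads carry no molecular identifiers that would mark single molecules). For 2 libraries, siCtrl replicate 2 and siYAP/TAZ replicate 2, the title and the genotype entry name the other group than the description. The description, which is also the column name of the counts, was used here. YAP1 had 189 to 210 CPM in the siCtrl libraries and 112 to 118 in the siYAP/TAZ libraries (log2 fold change -0.80, edgeR adjusted p = 0.0138), and WWTR1 had 102 to 109 and 59.8 to 70.5 CPM (-0.69, adjusted p = 0.0311), so that both targeted genes separated the libraries as the descriptions do. The knockdown was partial in RNA: mean CPM in siYAP/TAZ was 57.5% of that in siCtrl for YAP1 and 61.8% for WWTR1. These data hold no protein levels. YAP1 was no longer called when siCtrl replicate 3 (adjusted p = 0.0988) or one of siYAP/TAZ replicates 2 and 3 (0.0606 and 0.112) was left out. WWTR1 lost its call without any library other than siCtrl replicate 2, with adjusted p of 0.0928 and 0.135 without siCtrl replicates 1 and 3 and of 0.0602, 0.107 and 0.176 without siYAP/TAZ replicates 1, 2 and 3. Epithelial markers were all present, 10 of 10 with a mean over 3 counts. They summed to 1762 to 2248 CPM in siCtrl and, without overlap, 1492 to 1687 CPM in siYAP/TAZ. With the replicate number as a block, edgeR called KRT5 (adjusted p = 0.0230), LAMB3 (0.00962) and EPCAM (0.0364) lower and TP63 (0.0379) higher. Without it their adjusted p was 0.131, 0.0918, 0.292 and 0.177. Of the fibroblast markers, 3 of 8 passed the same mean (179 to 213 against 163 to 187 CPM in sum), with COL1A2, COL3A1 and THY1 at 0 in every library. Most of that sum was PDGFRA (161 ± 8.46 and 167 ± 14.5 CPM), while FAP had 18.5 to 55.8 CPM under siCtrl against 3.31 to 13.1 under siYAP/TAZ (log2 fold change -2.09, adjusted p = 0.0875, with the replicate block 0.000543). Leukocyte markers (5 of 8) summed to 211 to 270 and 247 to 295 CPM, nearly all of it the CSF1R row, with LYZ at 0. The pseudogene RPL7P1 lies inside CSF1R clear of its exons, so the reads of that row may not come from CSF1R. Endothelial markers (5 of 8) summed to 6.61 to 9.26 and 9.07 to 17.2 CPM, with CLDN5 at 0. Among them PECAM1 had 1.32 ± 0.367 CPM under siCtrl and 5.88 ± 3.32 under siYAP/TAZ, with no overlap (log2 fold change 2.10, edgeR adjusted p = 0.0785, with the block 0.0245). In such bulk RNA, fewer cells of a kind and less RNA per cell cannot be told apart.

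The inhibitors TIMP1 and TIMP3 were far more abundant than any of the proteases. TIMP1, which also signals through CD63, had the highest mean of the 9 genes at 298 ± 103 CPM (SD, n = 3) in siCtrl and 319 ± 77.9 in siYAP/TAZ. TIMP3, the inhibitor that stays bound to the matrix, followed at 252 ± 23.5 and 208 ± 35.0 CPM, and its range overlapped that of TIMP1 in both groups. TIMP2, which also takes part in the activation of proMMP2 on MMP14, came next at 56.6 ± 19.3 and 81.7 ± 12.2 CPM. MMP28 (epilysin), a secreted protease of keratinocytes and other epithelia, was the leading protease at 41.1 ± 4.78 and 61.6 ± 4.24 CPM. The TIMP2 and MMP28 ranges overlapped in siCtrl and were apart in siYAP/TAZ. MMP14, the membrane-anchored MT1-MMP, stood well below at 4.25 ± 0.863 and 2.70 ± 1.60 CPM, and the other 4 genes were at or near 0.

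**Figure D1:**
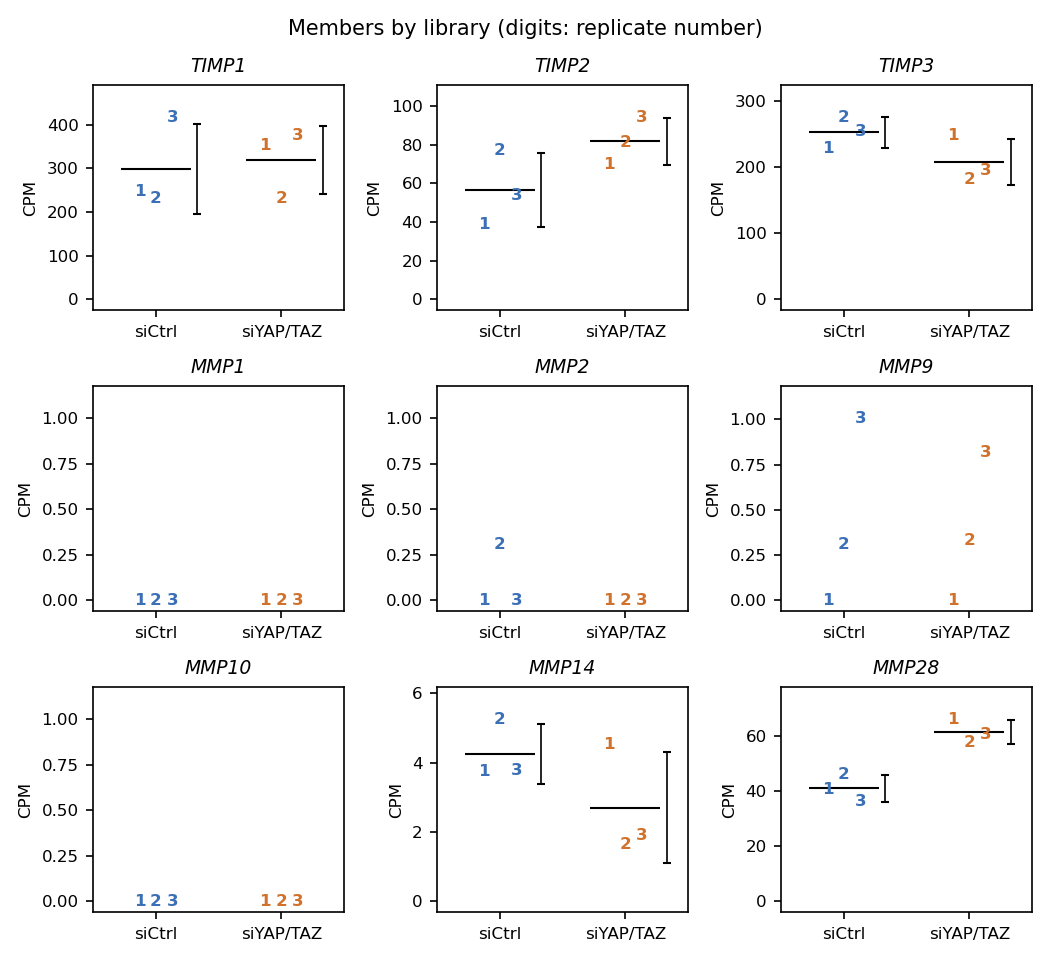
Level of each of the 9 genes in CPM, on linear axes that differ between panels. The digits are the replicate numbers of the siCtrl (blue) and siYAP/TAZ (orange) libraries, and in the 5 tested genes lines and bars give the mean ± SD (n = 3). The groups are apart in MMP28 (36.4 to 46.0 against 57.8 to 66.2 CPM) and overlap in TIMP1, TIMP2, TIMP3 and MMP14.

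Sequences upstream of the start site were at hand for 4 of the 9 genes (RefSeq, GRCh38.p14). Those of TIMP1, TIMP3 and MMP10 are printed, since they belong to the 2 genes with the most reads and to 1 with no read in any library. Each holds the 250 bases before the start, 5′ to 3′ on the strand of the gene. They are TIMP1 at chrX:47582186-47582435 (plus strand), TIMP3 at chr22:32801455-32801704 (plus) and MMP10 at chr11:102780629-102780878 (minus). Capitals mark matches on either strand to TGAGTCA (the AP-1 consensus), TGAGTAA (a variant of it), GGAATG (a TEAD motif) or TATAAA (the TATA box); no match overlapped another.
TIMP1: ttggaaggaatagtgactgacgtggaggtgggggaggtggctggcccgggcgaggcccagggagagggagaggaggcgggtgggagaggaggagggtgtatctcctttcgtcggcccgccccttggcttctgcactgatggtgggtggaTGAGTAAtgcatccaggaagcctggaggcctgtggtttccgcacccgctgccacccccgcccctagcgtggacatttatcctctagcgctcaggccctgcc
TIMP3: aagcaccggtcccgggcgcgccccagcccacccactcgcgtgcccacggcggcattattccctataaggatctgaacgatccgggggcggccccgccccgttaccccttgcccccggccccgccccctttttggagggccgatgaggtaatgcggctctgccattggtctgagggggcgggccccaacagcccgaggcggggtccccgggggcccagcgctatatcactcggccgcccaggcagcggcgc
MMP10: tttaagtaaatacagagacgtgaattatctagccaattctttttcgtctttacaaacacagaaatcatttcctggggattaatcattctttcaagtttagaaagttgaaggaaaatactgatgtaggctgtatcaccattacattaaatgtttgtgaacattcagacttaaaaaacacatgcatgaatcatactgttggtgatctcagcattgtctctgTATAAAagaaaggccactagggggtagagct

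TIMP1 had 1 TGAGTAA, from 101 to 95 bases before the start, which 2.21% of 35116 promoters of the same length hold. MMP10 had 1 TATAAA, from 31 to 26 bases before the start (10.7% of promoters). No letters of the TIMP3 window or of the MMP14 window matched, where TGAGTCA occurs in 4.2% and GGAATG in 11.9% of promoters. Base composition set the windows apart, with a GC content of 64.8% for TIMP1, 72.4% for TIMP3, 56.8% for MMP14 and 34.4% for MMP10 against a median of 58.0%, and with 12, 26, 7 and 2 CpG sites against a median of 11. These matches are a description of the letters and were not tested for binding.

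Of the 5 tested genes, 0 passed an adjusted p of 0.05 in edgeR, where 1.96% of the 12510 tested genes did, and DESeq2 also called 0. At an unadjusted p under 0.05 edgeR had 2 of 5, where 17.7% of all genes passed, and DESeq2 had 2 of the 7 genes that it fitted, where 10.0% of 19181 genes passed. In both tools these were TIMP2 and MMP28, higher in siYAP/TAZ. The median log2 fold change of the 5 was 0.10, against -0.00093 over all genes tested. With the replicate number as a block, MMP28 was called as well, so 1 of 5, where 10.1% of all genes were called. Without siCtrl replicate 2, both MMP28 and TIMP2 were called (2 of 5, 12.3% of all genes), and the same 2 were called without both libraries of disputed label (9.29% of all genes). The CPM of the 2 groups did not overlap in 1 of the 5, MMP28, as for 22.1% of all genes.

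MMP28 (Entrez 79148; GRCh37 chromosome 17, 34083268 to 34122711, minus strand) was the gene with the smallest p among the 9. Replicates 1, 2 and 3 of siCtrl held 40.8, 46.0 and 36.4 CPM of it (142, 149 and 145 counts). After siYAP/TAZ these levels were 66.2, 57.8 and 60.6 CPM (292, 175 and 223 counts). Every siYAP/TAZ library was above every siCtrl library. The difference was a log2 fold change of 0.59 ± 0.15 (SE; 95% interval 0.25 to 0.92), with an adjusted p of 0.0810. With the replicate block the log2 fold change was the same, 0.59, and the adjusted p was 0.0267. Without siCtrl replicate 2, which carries the highest MMP28 level of its group and a title that reads siYAP/TAZ, it was 0.68 (adjusted p = 0.0175), and without both disputed libraries 0.72 (0.0220). Over all fits the adjusted p ran from 0.0175 to 0.898, the highest with the groups of the titles.

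Part of the MMP28 row may belong to another gene. C17orf50 lies on the opposite strand within an intron of MMP28 (34087906 to 34092098) and its counts were 10, 4 and 5 under siCtrl against 30, 15 and 12 under siYAP/TAZ, for a log2 fold change of 1.49 ± 0.47 (adjusted p = 0.142, and 0.0470 with the block). After its counts were subtracted from MMP28 (a choice made after seeing the data), 39.3 ± 4.93 and 56.6 ± 3.33 CPM remained, a log2 fold change of 0.53 ± 0.15 (adjusted p = 0.109). The groups still did not overlap, at 35.2 to 44.7 and 52.9 to 59.4 CPM. A long noncoding transcript annotated inside MMP28 on the same strand has no counts of its own, so any reads of it could not be subtracted.

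TIMP2 (Entrez 7077; chromosome 17, 76849059 to 76921469, minus strand) measured 38.8, 77.1 and 53.8 CPM under siCtrl, against 69.8, 81.3 and 94.1 CPM under siYAP/TAZ. Its level was higher in siYAP/TAZ within each of the 3 replicate numbers, but siCtrl replicate 2 lay above siYAP/TAZ replicate 1, so the groups overlapped. The fold was 1.45, a log2 fold change of 0.53 ± 0.23 (95% interval 0.01 to 1.06; adjusted p = 0.278). With the replicate block it was 0.57 ± 0.16 (adjusted p = 0.0525). Without siCtrl replicate 2, in which it was 1.99 times its level in siCtrl replicate 1, the log2 fold change was 0.82 (adjusted p = 0.0202), and without both disputed libraries 0.82 (0.0358). CEP295NL, which lies inside TIMP2 on the same strand, had 0 to 5 counts, too few to alter the TIMP2 row. Other transcripts annotated inside TIMP2, on the opposite strand, have no counts of their own.

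TIMP1 (Entrez 7076; chromosome X, 47441807 to 47446188, plus strand) measured 247, 231 and 417 CPM under siCtrl, against 353, 230 and 374 CPM under siYAP/TAZ. The spread inside a group was wider than the difference between groups: the highest siCtrl library was 1.81 times the lowest, and the highest siYAP/TAZ library 1.63 times, while the groups differed 1.07-fold. Replicate 2 was the lowest of its group in both. The log2 fold change was 0.10 ± 0.25 (adjusted p = 0.875), with a 95% interval from -0.47 to 0.67 that leaves room for a change in either direction. It ranged from -0.05 to 0.42 as single libraries were left out, with no call in any fit.

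TIMP3 (Entrez 7078; chromosome 22, 33197691 to 33259028, plus strand) measured 228, 275 and 253 CPM under siCtrl, against 247, 181 and 195 CPM under siYAP/TAZ. Libraries 2 and 3 of siYAP/TAZ were below all siCtrl libraries, and siYAP/TAZ replicate 1 lay among them. The log2 fold change was -0.28 ± 0.15 (95% interval -0.62 to 0.07; adjusted p = 0.379). It turned to 0.12 (adjusted p = 0.926) under the groups of the titles.

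Both TIMP1 and TIMP3 lie inside introns of synapsin genes, on the opposite strand and clear of the synapsin exons. SYN1 and SYN3 encode synaptic vesicle proteins of neurons. The SYN1 row (Entrez 6853; chromosome X, 47431300 to 47479256, minus strand) held 861, 747 and 1660 counts under siCtrl, then 1559, 697 and 1377 under siYAP/TAZ, and the TIMP1 row held 859, 747, 1658, 1558, 696 and 1376. The 2 rows differed by 0 to 2 counts in each library. The same reads therefore appear to stand in both rows, and the SYN1 row carries at most 2 counts of its own. Its log2 fold change was that of TIMP1, 0.10 ± 0.25.

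The SYN3 row (Entrez 8224; chromosome 22, 32903807 to 33454367, minus strand) was larger than TIMP3 and moved the other way. It held 1184, 1276 and 1553 counts under siCtrl against 3145, 1944 and 2412 under siYAP/TAZ, a rise of 1.79-fold (log2 0.84 ± 0.13, adjusted p = 0.0171). Once the TIMP3 counts (794, 891 and 1007 against 1091, 547 and 718) were taken away, a step added after seeing the data, 390, 385 and 546 counts were left under siCtrl against 2054, 1397 and 1694 under siYAP/TAZ. In CPM this was 123 ± 13.0 against 463 ± 2.53, with 112 to 137 in the one group and 461 to 466 in the other. The remainder rose 3.77-fold (log2 fold change 1.91 ± 0.13, 95% interval 1.62 to 2.21, adjusted p = 0.000585). The part of the SYN3 row outside TIMP3 was 30.2% to 35.2% in siCtrl and 65.3% to 71.9% in siYAP/TAZ. The remainder and these shares assume that all TIMP3 reads also stand in the SYN3 row, which counts per gene cannot show.

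The rise of the remainder kept its call without each library in turn (log2 fold change 1.85 to 2.0, adjusted p from 0.000117 to 0.0101), while the undivided SYN3 row lost it without siCtrl replicate 1 (adjusted p = 0.0707), siCtrl replicate 3 (0.108) and without one of siYAP/TAZ replicates 2 and 3 (0.0606 and 0.110). Under the groups of the titles neither passed, with the remainder at 0.56 (adjusted p = 0.905) and the undivided row at 0.36 (0.898). Which transcript the reads of the remainder come from cannot be told from counts per gene. Reads of a SYN3 transcript that fall within the span of TIMP3 would stand in the TIMP3 row too, so the TIMP3 level may hold a part that is not TIMP3.

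**Figure D2:**
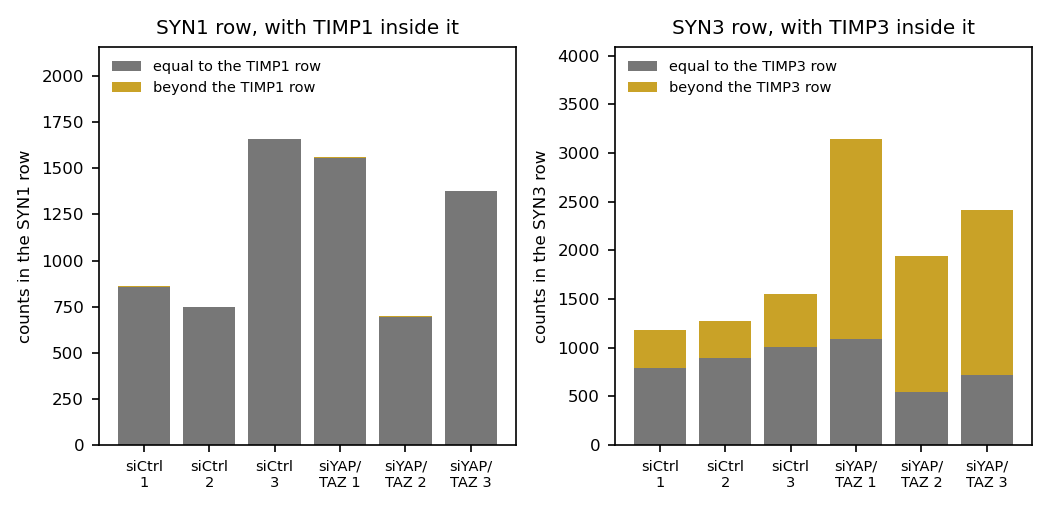
Raw counts of the SYN1 row (left) and of the SYN3 row (right) in each library. Grey is the number of counts in the row of the TIMP gene inside it and yellow is what the synapsin row holds beyond that: 0 to 2 counts for SYN1, and for SYN3 385 to 546 counts in siCtrl and 1397 to 2054 in siYAP/TAZ.

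Nested genes were common in the table. Over all of them, the longer gene held at least as many counts as the gene inside it in every library for 115 of 177 pairs on opposite strands (64.97%) and for 363 of 382 pairs on the same strand (95.03%), among nested genes with a mean of at least 50 counts. How strand entered the counting of these libraries is not stated.

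MMP14 (Entrez 4323; chromosome 14, 23305769 to 23318250, plus strand) was near the limit of detection. Its counts were 13, 17 and 15 under siCtrl (3.73, 5.25 and 3.77 CPM) against 20, 5 and 7 under siYAP/TAZ (4.53, 1.65 and 1.90 CPM). Replicates 2 and 3 of siYAP/TAZ were below all siCtrl libraries and replicate 1 was not. The log2 fold change was -0.59 ± 0.44 with a wide 95% interval, -1.58 to 0.41 (adjusted p = 0.533). Under the groups of the titles it was 0.32 (adjusted p = 0.926), and without siYAP/TAZ replicate 1, the library with the highest count, it reached -1.23.

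Of the other proteases little or nothing was read. MMP9, a gelatinase (Entrez 4318; chromosome 20, 44637547 to 44645200, plus strand), showed 0, 1 and 4 counts under siCtrl against 0, 1 and 3 under siYAP/TAZ. MMP2, the other gelatinase (Entrez 4313; chromosome 16, 55423612 to 55540603, plus strand), had a single count, in siCtrl replicate 2. The collagenase MMP1 (Entrez 4312; chromosome 11, 102660132 to 102668891, minus strand) and the stromelysin MMP10 (Entrez 4319; chromosome 11, 102641233 to 102651359, minus strand) were at 0 in all 6 libraries. Both lie within the span of WTAPP1, a transcribed pseudogene on the opposite strand with 1 to 4 counts. At this depth, MMP1 and MMP10 levels under 0.680 to 0.992 CPM per library were not detectable in either group, so no fold can be given.

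Summed over the 3 inhibitors, the level was 607 ± 107 CPM in siCtrl and 609 ± 101 in siYAP/TAZ. Over the 6 proteases the sum was 45.9 ± 5.44 and 64.6 ± 5.55 CPM, of which MMP28 made up 88.4% to 91.6% in siCtrl and 93.6% to 96.7% in siYAP/TAZ. The ratio of inhibitor to protease transcripts was 11.5, 11.2 and 17.6 under siCtrl against 9.48, 8.23 and 10.5 under siYAP/TAZ, so all siYAP/TAZ libraries were below all siCtrl libraries. This ratio follows from the levels above, those of the inhibitors as well as that of MMP28, and was not tested. In siCtrl replicate 3, which had the highest ratio, the inhibitor sum was 723 CPM, against 514 and 583 in siCtrl replicates 1 and 2. Among the inhibitors, TIMP2 made up 7.43% to 13.2% in siCtrl and 10.4% to 16.5% in siYAP/TAZ, and TIMP3 35.0% to 47.2% and 29.4% to 36.9%. Both pairs of ranges overlapped.

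**Figure D3:**
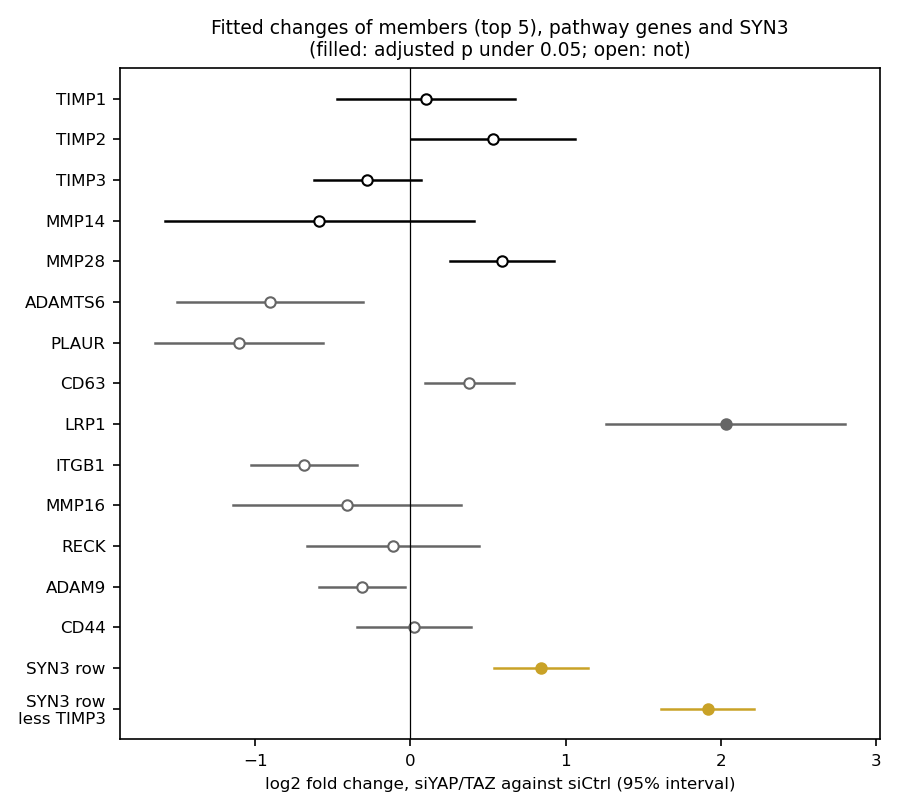
Fitted log2 fold changes (points) with 95% intervals (lines), siYAP/TAZ against siCtrl, for the 5 tested genes of the family (top), named genes around them (grey) and the SYN3 row with and without TIMP3 (yellow). Filled points passed an adjusted p of 0.05. These are LRP1 at 2.03 and both SYN3 values, at 0.84 and 1.91.

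Genes that act on or beside these proteins were taken from lists of 70 genes, of which 31 were tested. LRP1 was the one gene called in edgeR, higher in siYAP/TAZ, with 0 lower, so 1 of 31 beside 1.96% of all genes. Their median log2 fold change was -0.11, and 7 of 31 had an unadjusted p under 0.05 (5 lower, 2 higher), beside 17.7% of all genes. With the replicate block 3 were called lower and 2 higher, where 10.1% of all genes were called.

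LRP1, the endocytic receptor that clears MMP, TIMP and protease-inhibitor complexes, showed 15, 21 and 18 counts under siCtrl against 55, 77 and 92 under siYAP/TAZ. In CPM it stood at 4.31, 6.48 and 4.52 against 12.5, 25.5 and 25.0, with no overlap. The level was 4.08-fold higher (log2 fold change 2.03 ± 0.34, adjusted p = 0.0221). The call was lost without siCtrl replicate 1 (adjusted p = 0.0780), siCtrl replicate 3 (0.135) and without one of siYAP/TAZ replicates 2 and 3 (0.0808 and 0.132), with a log2 fold change of 1.87 to 2.31 in the fits with 1 library left out. Its span overlaps that of STAT6 on the opposite strand, which had 65.1 to 74.4 CPM in siCtrl and 82.3 to 97.9 CPM in siYAP/TAZ (adjusted p = 0.146).

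Among activators and surface partners (18 genes, 14 tested), PLAUR, the receptor that holds the plasminogen activator urokinase at the cell surface, measured 40.8, 22.2 and 30.9 CPM under siCtrl against 14.3, 13.9 and 15.5 under siYAP/TAZ. The groups were apart, at a log2 fold change of -1.10 ± 0.24 and an adjusted p of 0.0535, and of 0.00964 with the block. ITGB1, the integrin beta chain of many collagen and laminin receptors and a partner of TIMP1 and CD63, measured 327, 326 and 397 CPM under siCtrl against 199, 200 and 255 CPM under siYAP/TAZ. Its log2 fold change was -0.68 ± 0.15 (adjusted p = 0.0560, with the block 0.00289). The tetraspanin CD63, the TIMP1 receptor, had 191, 197 and 218 CPM against 247, 256 and 285 CPM (log2 fold change 0.38 ± 0.13, adjusted p = 0.166, with the block 0.0469). PLAUR and ITGB1 were also called by DESeq2 (adjusted p = 0.00752 and 0.00518). Over all fits their adjusted p ran from 0.00358 to 0.898 and from 0.00289 to 0.905, while that of CD63 ran from 0.0469 to 0.914. Each highest value came from the groups of the titles. Among the fits with the groups of the descriptions, the highest were 0.200 for PLAUR, 0.254 for ITGB1 and 0.496 for CD63. CD44, the hyaluronan receptor that docks MMP9 and MMP14, was the most abundant gene of the list at 406 ± 52.6 and 413 ± 67.1 CPM (log2 fold change 0.02 ± 0.16, adjusted p = 0.957).

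Beyond the 6 proteases of the family above, 17 further MMP genes were counted and 4 of them (MMP20, MMP23B, MMP26 and MMP27) were at 0 in every library. The 2 that were tested are membrane-type enzymes, and 0 were called in edgeR, in the fit with the block or at an unadjusted p under 0.05. MMP16 had the higher level, 12.5 ± 4.53 and 9.37 ± 2.39 CPM (log2 fold change -0.41 ± 0.33, adjusted p = 0.561). Of 7 other inhibitors 3 were tested and 0 called with either fit, also at an unadjusted p under 0.05. RECK, a membrane-anchored inhibitor, led them at 13.6 ± 1.87 and 12.7 ± 2.69 CPM (-0.11 ± 0.25, adjusted p = 0.857). TIMP4, the fourth TIMP, had 1 count in all.

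The ADAM sheddases, which release growth factors and receptors from the cell surface and include targets of TIMP3, were better represented. Of 9 genes 7 were tested, 0 were called in edgeR with or without the block, and 2 were lower at an unadjusted p under 0.05, where 9.27% of all genes were lower at that p. ADAM9 had the highest level, with 94.5 to 104 CPM in siCtrl and 78.0 to 84.5 CPM in siYAP/TAZ (log2 fold change -0.31 ± 0.12, adjusted p = 0.232). Of the 19 ADAMTS proteases of the matrix 5 were tested, and all 5 had negative log2 fold changes with a median of -0.67, where 50.1% of all genes tested were negative. In this list 0 were called, 1 was under an unadjusted p of 0.05 (17.7% of all genes), and 1 was called with the block (10.1% of all genes), so that no trend of the list was shown. The gene was ADAMTS6 in both cases, at 20.4, 22.8 and 35.9 CPM under siCtrl against 13.6, 11.6 and 17.1 CPM under siYAP/TAZ. Its log2 fold change was -0.90 ± 0.27 (adjusted p = 0.121, with the block 0.0214). Over all fits its adjusted p ran from 0.0214 to 0.904, the highest with the groups of the titles. Among the fits with the groups of the descriptions, the highest was 0.429.

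The genes whose log2 CPM followed MMP28 most closely over the 6 libraries, of 8912 compared, were EOLA2-DT (r = 0.993), PITPNA-AS1 (0.992) and AKR1C1 (0.992). AKR1C1, an aldo-keto reductase with near-identical paralogs, had 45.0 to 146 CPM in siCtrl and 343 to 764 CPM in siYAP/TAZ. For TIMP1 they were SYN1 (the same counts, as described above), TRIM59 (0.970) and RPL23AP82 (0.967), which within siCtrl were likewise highest in replicate 3. With 6 libraries that share depth and group, and the closest of so many genes chosen, these values only describe the pattern.

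**Figure D4:**
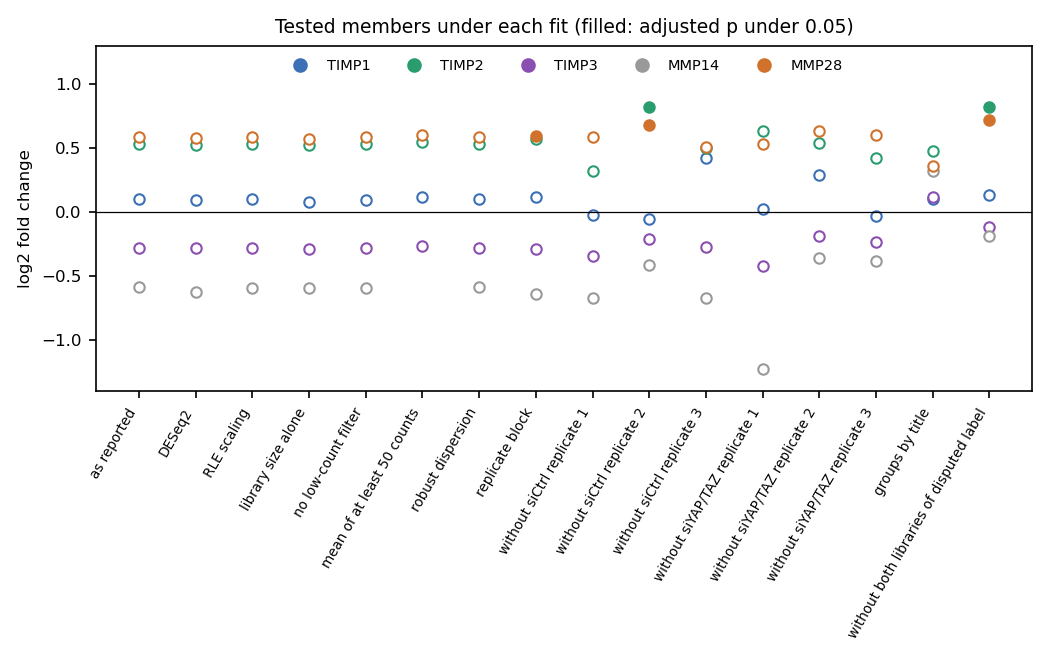
Log2 fold change of the 5 tested genes (colours) under each fit, from the values as reported (left) to those without single libraries, with the groups of the titles and without the 2 libraries of disputed label (right). Filled points passed an adjusted p of 0.05: MMP28 in 3 fits, 0.59 with the replicate block, 0.68 and 0.72, and TIMP2 in 2, both at 0.82. TIMP1 crosses 0 without some libraries, TIMP3 (0.12) and MMP14 (0.32) cross it with the groups of the titles, and MMP14 is absent from the fit restricted to a mean of at least 50 counts.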

How the data were processed

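The authors deposited raw counts per Entrez gene for 6 libraries. Per the labels' processing notes, cutadapt 4.2, Bowtie2 2.3.5.1 and hg19 were used. The annotation and any use of strand are not given in the sources used here. Groups and replicate numbers follow the description field, although titles of 2 libraries name the other group. The table had 0 unnamed genes and 0 unused value columns, and 23308 IDs (99.7% of counts) matched a RefSeq symbol. Coordinates are from GENCODE lifted to GRCh37.

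Counts were tested with the quasi-likelihood test of edgeR 4.0.16 (R 4.3.3), on genes kept by the default low-count filter, under TMM scaling and with a term for group alone, and p-values were adjusted by Benjamini-Hochberg over 12510 genes (99.6% of counts). The procedure was tested on simulated data. The threshold was an adjusted p-value of 0.05. CPM were TMM-scaled, and errors are SD over 3 libraries. No libraries within a group were identical (chi-square per degree of freedom 5.37 to 17.4). Deviations from group means correlated between libraries of the same number (r = 0.42, 0.35 and 0.13 across genes). The main fit takes no account of this, so a fit with the replicate number as a block was run beside it. The numbers come from the description field, and blocked values are given where they change a call.

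The fits were repeated with DESeq2 1.42.0, robust dispersion, RLE scaling, no scaling beyond library size, no filter, a filter at a mean of 50 counts, the replicate block, each library left out, both disputed libraries left out and the groups of the titles. Subtraction of nested genes was chosen after seeing the data.

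The members and lists were chosen with earlier results of these data known. Named were all 9 members, genes overlapping them that have counts of their own, YAP1, WWTR1, listed genes called with or without the block, the most abundant gene of each list, and the 3 genes closest in pattern to MMP28 and TIMP1, among genes with a mean of at least 50 counts. Annotated transcripts that overlap members but have no counts of their own were not named. MMP20, MMP23B, MMP26, MMP27, TIMP4 and STAT6 fall outside this rule, as do the marker genes.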

Additional observations from a re-analysis of the deposited data

How the results depend on the processing

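No member was called under 12 of the 15 alternatives. The exceptions were the replicate block (1 member, MMP28), the fit without siCtrl replicate 2 (2) and the fit without both disputed libraries (2), so leaving out 1 library gave 0 to 2. Pathway genes, 1 as reported, numbered 3 with DESeq2, 3 without the low-count filter, 0 at a mean of at least 50 counts, 3 with robust dispersion, 5 with the replicate block, 0 by the titles' groups, 3 without both disputed libraries and 0 to 4 with 1 library left out. Over all genes, 245 calls became 578 with DESeq2, 556 without the filter, 1263 with the replicate block, 0 with the groups of the titles (464 at an unadjusted p under 0.05), 1183 without both disputed libraries, and 16 to 1579 with 1 library left out (92, 1579 and 16 without siCtrl replicates 1, 2 and 3, and 71 and 18 without siYAP/TAZ replicates 2 and 3). With 1 library left out the log2 fold change turned direction for TIMP1 (-0.053 to 0.42, negative without siCtrl replicate 1, siCtrl replicate 2 or the third siYAP/TAZ library), the SYN1 row (-0.054 to 0.42, without the same libraries), RECK (-0.27 to 0.030, positive without siYAP/TAZ replicate 1) and CD44 (-0.086 to 0.14, negative without siCtrl replicate 1 or the second siYAP/TAZ library). The groups of the titles, which exchange siCtrl replicate 2 and siYAP/TAZ replicate 2, turned TIMP3 (0.12), MMP14 (0.32) and CD44 (-0.012). In that edgeR fit YAP1 stood at -0.26 (adjusted p = 0.904) and WWTR1 at -0.22 (0.905), against -0.80 and -0.69 as reported. The cause of the turns in direction was not tested. With the SYN3 row added TIMP3 stood at 0.49. This follows from the construction, as that row is larger, rose and may already hold the TIMP3 counts, and it says nothing about TIMP3. Among the tested genes named above, the replicate block changed the calls of MMP28, C17orf50, ADAMTS6, PLAUR, CD63, ITGB1, FAP and EOLA2-DT (adjusted p = 0.0854, with the block 0.0320). It also changed those of the markers KRT5, LAMB3, EPCAM, TP63 and PECAM1, and no other. Depth limits MMP1, MMP2, MMP9, MMP10 and MMP14, each with at most 20 counts in a library.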
